A study of Mus musculus with 10 samples.

Results

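NADPH oxidases are enzymes whose main product is superoxide or hydrogen peroxide, and 7 genes of this system were followed in mouse left atria: Cybb, Cyba, Ncf1, Ncf4, Nox4, Rac1 and Rac2. They were taken by symbol from the 37583 genes counted, and each symbol matched 1 row: Cybb (ENSMUSG00000015340, chromosome X), Cyba (ENSMUSG00000006519, chromosome 8), Ncf1 (ENSMUSG00000015950, chromosome 5), Ncf4 (ENSMUSG00000071715, chromosome 15), Nox4 (ENSMUSG00000030562, chromosome 7), Rac1 (ENSMUSG00000001847, chromosome 5) and Rac2 (ENSMUSG00000033220, chromosome 15). All 7 had enough reads to enter the tests, which covered 15364 genes. The labels describe 10 libraries of polyadenylated RNA from adult animals. The comparisons they imply are KO, animals with a cardiac knockout of Csk, against WT, untreated wild-type animals (2 libraries each), and IBR, animals given the kinase inhibitor ibrutinib, against CTL, animals given vehicle (3 libraries each). Csk encodes a kinase that holds Src family kinases inactive. No source used here gives the Cre driver, the strain, the sex, or the dose, route and duration of treatment. The labels do not say that each library came from a separate animal, so the p-values measure the spread between these libraries, which may be technical.

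In the oxidase of phagocytes, the catalytic subunit NOX2 (encoded by Cybb) sits in the membrane with p22phox (Cyba), which stabilises it. The complex stays silent until cytosolic subunits, among them p47phox (Ncf1) and p40phox (Ncf4), and a GTP-loaded Rac protein join it. Rac2 is the Rac form of blood cells, while Rac1 is made in nearly all cells and also steers the actin skeleton. NOX4 (Nox4) also binds p22phox but makes hydrogen peroxide without the cytosolic subunits, and it is known from fibroblasts, endothelial cells and cardiac muscle cells. In the heart, oxidants from NOX2 and NOX4 are studied for their part in fibrosis and atrial arrhythmia.

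The libraries held 14907331 to 19960947 counts on genes, and levels are given as CPM, the usual unit of counts relative to library size, after scaling the libraries by trimmed means (TMM). Csk itself, the gene named in the genotype, was not lower in KO. It stood at 24.7 and 35.5 CPM in KO26 and KO337, against 18.3 and 17.8 CPM in WT35 and WT338 (log2 difference 0.74, standard error (SE) 0.18, adjusted p = 0.0608 in edgeR and 0.0126 in DESeq2). Gene-level counts of a whole atrium cannot show a deleted exon or a loss in 1 cell type, so the text speaks of libraries labelled KO, and every KO direction below rests on that label. KO337 stood apart, with its 10 most abundant genes at 7.03% of counts, while the share was 10.8% for KO26 and between 12.4% and 14.4% elsewhere. Atrial muscle markers were abundant throughout. Their summed level over 8 genes was 56600 and 30600 CPM in KO26 and KO337, against 70400 to 75600 CPM in WT, and it was 76900 to 82400 CPM in IBR, against 84400 to 97300 CPM in CTL.

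In the libraries labelled KO, the catalytic subunit gene Cybb, the cytosolic subunit gene Ncf4 and the blood cell Rac gene Rac2 were higher than in WT. They were called, meaning that edgeR's quasi-likelihood test over all genes gave an adjusted p below 0.05, at 5.51-fold, 6.91-fold and 4.96-fold. Cyba, Ncf1 and Nox4 had fold differences of 2.56, 2.48 and 3.87 and were not called, and Rac1 differed by 1.06-fold. Thus 3 of 7 members were called higher and 0 lower, where 2.21% of all tested genes were called and 1.31% were called higher. Both libraries labelled KO lay above both WT libraries for 6 members, which was so for 26.3% of all tested genes. The median log2 fold change was 1.95 over the 7 members and 0.01 over all tested genes. The calls rest on few libraries, and in whole tissue more cells of a type and more RNA per cell cannot be told apart. Each fit that leaves out a WT or KO library keeps a single library of that group, so the spread within it does not enter. Without KO337, 1 member was called, beside 0.348% of the genes tested in that fit, and without KO26 6 members were called, beside 24.3%. Without WT35 or WT338, 0 members were called, beside 0.0862% and 0.129%. A fit of the WT and KO libraries alone called 0 members and 0% of genes. DESeq2 called 6 members, Cyba, Ncf1 and Nox4 included (adjusted p of 0.0252, 0.0405 and 0.0208), beside 11.9% of all tested genes.

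**Figure D1:**
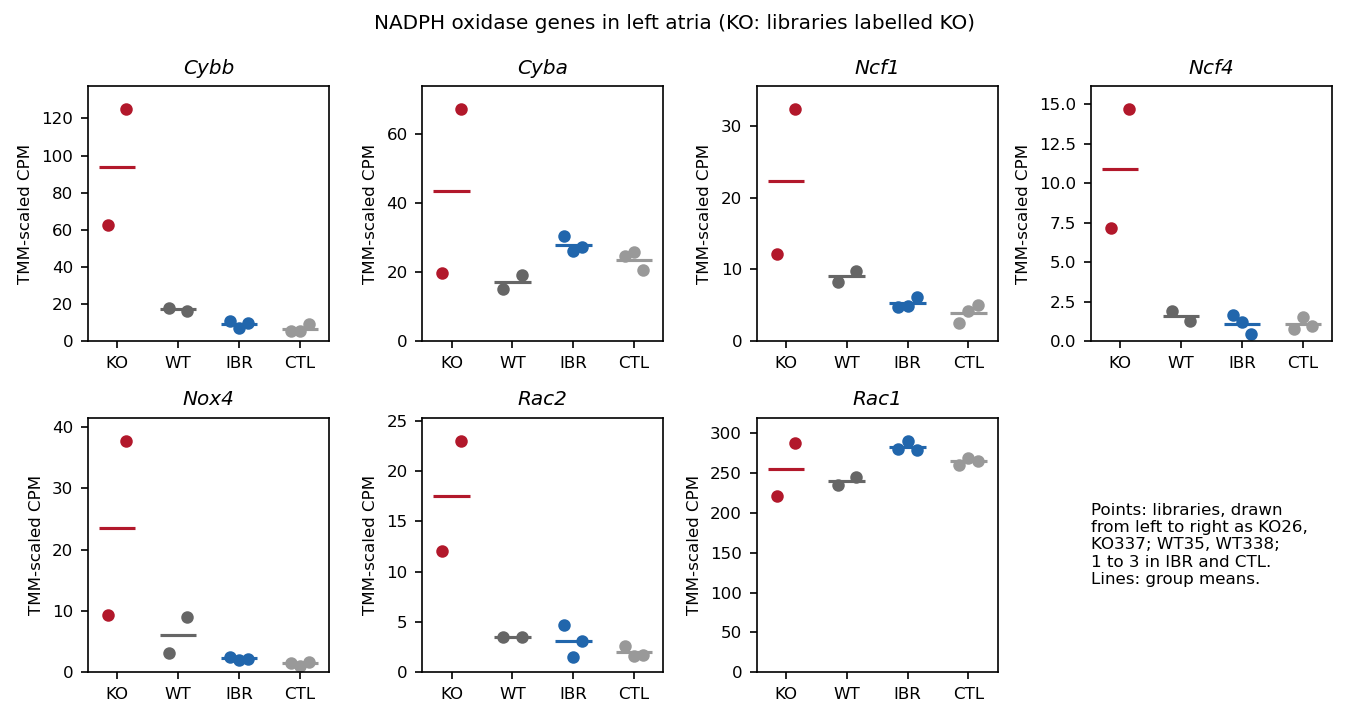
TMM-scaled CPM (linear axes from 0) of each member in each library, in the order KO, WT, IBR and CTL, with points for libraries and lines for group means. Cybb, Ncf4 and Rac2 were higher in both libraries labelled KO than in both WT libraries, while KO26 lay close to WT for Cyba and Nox4.

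Cybb, on chromosome X, encodes the catalytic subunit NOX2. It stood at 62.5 and 125 CPM in KO26 and KO337 (counts of 1077 and 2756), against 17.8 and 16.2 CPM in WT35 and WT338 (counts of 360 and 257). Both WT libraries were close to each other, and the nearer library labelled KO was far above them. The log2 fold change was 2.46 (SE 0.36, 95% interval 1.65 to 3.28, adjusted p = 0.0264). Cybb was the member whose call held without KO337, at a log2 fold change of 1.86 and an adjusted p of 0.0497. Without WT35 or WT338 the log2 fold change was 2.53 or 2.38 and the adjusted p 0.143 or 0.139.

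Of the genes of both catalytic subunits, edgeR called only Cybb, while DESeq2 called Nox4 as well (adjusted p = 0.0208). The difference between these genes was not tested. Their promoters are shown because Cybb and Nox4 differ in where they are known to be expressed. They are RefSeq sequences of build GRCm38.p6, 250 bases before to 50 after the annotated start, read 5′ to 3′ along the gene. Cybb lies at chrX:9469275-9469574 on the minus strand and Nox4 at chr7:87246399-87246698 on the plus strand. Capitals mark exact matches to GAGGAA or its reverse complement TTCCTC, a core sequence bound by PU.1, the myeloid transcription factor encoded by Spi1. Other sequences that PU.1 may bind were not searched for.
Cybb: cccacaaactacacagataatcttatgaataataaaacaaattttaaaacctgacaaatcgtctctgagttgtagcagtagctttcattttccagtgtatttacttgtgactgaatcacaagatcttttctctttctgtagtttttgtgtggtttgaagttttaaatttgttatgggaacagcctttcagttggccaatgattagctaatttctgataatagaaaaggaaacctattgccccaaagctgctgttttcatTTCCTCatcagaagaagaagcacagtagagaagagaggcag
Nox4: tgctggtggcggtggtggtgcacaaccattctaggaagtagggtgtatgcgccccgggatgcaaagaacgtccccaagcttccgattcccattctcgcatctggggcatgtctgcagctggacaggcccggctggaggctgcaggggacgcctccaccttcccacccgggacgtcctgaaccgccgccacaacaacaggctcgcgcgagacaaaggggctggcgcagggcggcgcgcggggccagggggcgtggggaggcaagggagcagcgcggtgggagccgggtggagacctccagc
The Cybb window held 1 such core, which began 9 bases after the annotated start, and the windows of Nox4, Cyba and Ncf1 held 0. The table has no entry for Ncf4, Rac1 or Rac2. Of 32544 promoter windows of 300 bases, 28.1% held the core on either strand, so the match is a description of these letters and not of binding. The GC content was 35.3% in the Cybb window and 68.3% in that of Nox4. The GC box GGGCGG, found on either strand in 35.9% of windows, was present in those of Nox4, Cyba and Ncf1 and had no match in that of Cybb. Spi1 itself was called 4.65-fold higher, at 10.9 and 22.8 CPM in KO26 and KO337, against 3.31 and 3.96 CPM in WT35 and WT338 (adjusted p = 0.0368). Its part in the Cybb values was not tested.

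Cyba, which encodes the partner of both NOX2 and NOX4, was high in KO337 and not in KO26. It stood at 19.8 and 67.2 CPM in KO26 and KO337, against 15.1 and 19 CPM in WT35 and WT338. KO26 was thus barely above the higher WT library, and KO337 was 3.4-fold above KO26. The log2 fold change was 1.35 (SE 0.43, 95% interval 0.39 to 2.32, adjusted p = 0.102), and it was 0.2 without KO337. Per kilobase of exon, which allows levels of different genes to be compared, Cybb reached 0.565 and 0.332 of the Cyba level in KO26 and KO337, against 0.211 and 0.152 in WT35 and WT338. The share of Cybb relative to its partner was therefore higher in both libraries labelled KO, and highest in KO26.

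Of the cytosolic subunits among the members, Ncf4 was called and Ncf1 was not, and the difference between them was not tested. Ncf4, which encodes p40phox, a subunit that binds a membrane lipid of phagosomes, stood at 7.14 and 14.7 CPM in KO26 and KO337, against 1.88 and 1.26 CPM in WT35 and WT338. These are low levels, with 123 and 325 counts in the libraries labelled KO against 38 and 20 counts in WT. The log2 fold change was 2.79 (SE 0.57, adjusted p = 0.0404), and without KO337 it was 2.15 and not called (adjusted p = 0.156).

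Ncf1 encodes p47phox, the organiser whose phosphorylation starts assembly. It stood at 12.2 and 32.4 CPM in KO26 and KO337, against 8.21 and 9.81 CPM in WT35 and WT338. KO337 was again the high library, and KO26 lay near the WT range. The log2 fold change of 1.31 (SE 0.43, 95% interval 0.36 to 2.26) was not called (adjusted p = 0.105) and was 0.42 without KO337. In GENCODE M21, 11.1% of the Ncf1 exon bases also belong to Gtf2ird2 on the opposite strand, whose level was 8.82 and 9.96 CPM in KO26 and KO337, against 11.1 and 9.93 CPM in WT. The counting ignored strand, so reads from those bases cannot be assigned to 1 of both genes.

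Rac2 and Rac1 encode closely related GTPases, of which Rac2 was called and Rac1 was not. Rac2 stood at 12.1 and 23 CPM in KO26 and KO337, against 3.56 and 3.52 CPM in WT35 and WT338. The WT libraries were almost equal and both libraries labelled KO lay well above them (log2 fold change 2.31, SE 0.48, adjusted p = 0.0426). Without KO337 the log2 fold change was 1.75 (adjusted p = 0.169). Rac1 stood at 221 and 287 CPM in KO26 and KO337, against 234 and 245 CPM in WT35 and WT338. The WT values lay between those of KO26 and KO337. The log2 fold change was 0.08 (SE 0.16, adjusted p = 0.771), and its 95% interval of -0.27 to 0.43 leaves room for a modest difference in either direction. In GENCODE M21, 51.4% of the exon bases of Rac1 are shared with Daglb on the opposite strand, so reads there can be set aside as ambiguous and the Rac1 level may be an underestimate. Daglb had 20 and 31.3 CPM in KO26 and KO337, against 18.5 and 17.4 CPM in WT35 and WT338. Per kilobase, Rac1 exceeded Rac2 by 12.6-fold in KO26 and 8.6-fold in KO337, against 45.3-fold in WT35 and 48.1-fold in WT338.

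Nox4, on chromosome 7, varied within both genotypes. It stood at 9.35 and 37.8 CPM in KO26 and KO337, against 3.17 and 9.12 CPM in WT35 and WT338. KO26 was nearly level with WT338, and KO337 was 4.05-fold above KO26, the widest gap between both libraries labelled KO among the 7 members. The log2 fold change of 1.95 (SE 0.62, 95% interval 0.58 to 3.33) was not called (adjusted p = 0.1). It was 0.6 without KO337, 2.62 without KO26, 2.88 without WT338 and 1.37 without WT35. Fibroblasts are known to make NOX4, and the summed level of 8 fibroblast markers was also highest in KO337. It was 2960 and 10100 CPM in KO26 and KO337, against 2540 and 2310 CPM in WT35 and WT338. Between the WT libraries it thus ran opposite to Nox4, which was higher in WT338. Collagen genes weigh most in the KO337 sum, with Col3a1 at 531 and 3670 CPM and Col1a1 at 134 and 1670 CPM in KO26 and KO337. Pdgfra alone went the other way, at 169 and 135 CPM, and Tcf21 stood at 16.3 and 20.1 CPM. All 8 had positive differences, and edgeR called 0 of them. At an unadjusted p under 0.05 there were 6 of them, beside 3947 of all 15364 tested genes. DESeq2 called 5 of them, beside 11.9% of all tested genes. The 6 smooth muscle markers summed to 499 and 956 CPM in KO26 and KO337, against 431 to 437 CPM in WT. The 6 endothelial markers, with 5 positive differences and 0 called, summed to 1040 and 1330 CPM in KO26 and KO337. Their sum in WT35 and WT338 was 920 and 1090 CPM. The part of any of these marker genes in the Nox4 values was not tested.

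**Figure D2:**
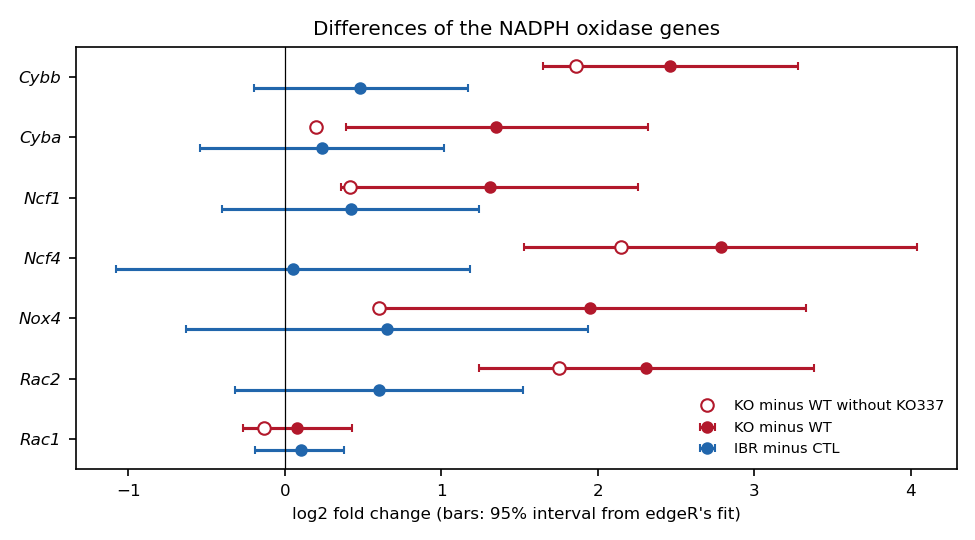
Log2 fold change of each member on the x axis for KO minus WT and for IBR minus CTL, with 95% intervals from edgeR's fit, and open circles for KO minus WT without KO337. Cybb, Ncf4 and Rac2 stayed between 1.75 and 2.15 without KO337, while Cyba, Ncf1 and Nox4 lay between 0.2 and 0.6.

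Levels of leukocyte markers are given beside the called members. Ptprc, which encodes the pan-leukocyte antigen CD45, stood at 49 and 121 CPM in KO26 and KO337, against 13.8 and 13.5 CPM in WT35 and WT338. All 12 tested leukocyte and macrophage markers had positive differences, of which 4, Adgre1, Cx3cr1, Fcgr1 and Ptprc, were called and 8 were not. Over all tested genes 1.31% were called higher by edgeR. DESeq2 called 9 of the 12 markers, beside 11.9% of all tested genes. Cd14 stood at 22.3 and 209 CPM in KO26 and KO337, against 13.7 and 112 CPM in WT35 and WT338, and Mrc1, a gene of resident macrophages, had a log2 fold change of 0.12 (adjusted p = 0.68). Ptprc had a log2 fold change of 2.64 (adjusted p = 0.0288), and 1.83 without KO337 (adjusted p = 0.0543). It also lost its call without WT35 and without WT338 (adjusted p of 0.159 and 0.154). Their sum was 886 and 3440 CPM in KO26 and KO337, against 498 to 637 CPM in WT. Neutrophils are rich in this oxidase, and their markers were scarce. The neutrophil markers Mpo, Elane and Ly6g were at 0 to 2 counts in every library. All 5 tested neutrophil markers had positive differences, with a median of 2.66 on the log2 scale. Of these, 0 were called by edgeR. At an unadjusted p under 0.05 there were 2 of them, beside 3947 of all 15364 tested genes. DESeq2 called 1 of them, beside 11.9% of all tested genes. The 8 markers summed to 9.46 and 25.6 CPM in KO26 and KO337, against 2.77 to 4.65 CPM in WT. The same sum ran from 1.95 to 8.07 CPM in IBR, against 3.98 to 26.2 CPM in CTL. The highest was CTL2, with S100a8 and S100a9 at 6.85 and 11.4 CPM, while CTL1 and CTL3 summed to 4.78 and 3.98 CPM. The 8 T and B cell markers summed to 13 and 14.1 CPM in KO26 and KO337, against 3.31 to 4.9 CPM in WT. Of them 7 had positive differences and 1, Ms4a1, a negative one (log2 fold change -0.56). The T cell genes Cd3e and Cd8a were called higher by edgeR (adjusted p of 0.0427 and 0.0483), and 6 were not called. In WT35 and WT338 Cd3e stood at 0.247 and 0.251 CPM. Cd8a stood there at 0.0989 and 0.126 CPM, below the level of 3 counts (0.148 and 0.189 CPM).

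Set against Ptprc, which was chosen as the divisor and was itself called, the members differed among themselves. The ratio of Cybb to Ptprc was 1.27 in KO26 and 1.03 in KO337, against 1.29 in WT35 and 1.2 in WT338, so Cybb differed about as much as Ptprc did. The ratio of Ncf4 was 0.146 and 0.122 in KO26 and KO337, against 0.137 and 0.0935 in WT35 and WT338, and the ranges overlapped. That of Rac2 was 0.247 and 0.191, against 0.259 and 0.262, a small difference with both libraries labelled KO below WT. The ratios of Ncf1, Cyba and Rac1 were lower by a wider margin, with both libraries labelled KO below both WT libraries. Ncf1 had 0.249 and 0.268 per Ptprc in KO26 and KO337, against 0.597 and 0.729 in WT35 and WT338, a log2 difference of -1.35. Cyba had 0.404 and 0.557, against 1.1 and 1.42, a log2 difference of -1.39. Rac1 had 4.51 and 2.38, against 17 and 18.2, a log2 difference of -2.43. The ratios of Nox4 overlapped, at 0.191 and 0.313 in KO26 and KO337, against 0.23 and 0.678 in WT35 and WT338. No test was run on these ratios.

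**Figure D3:**
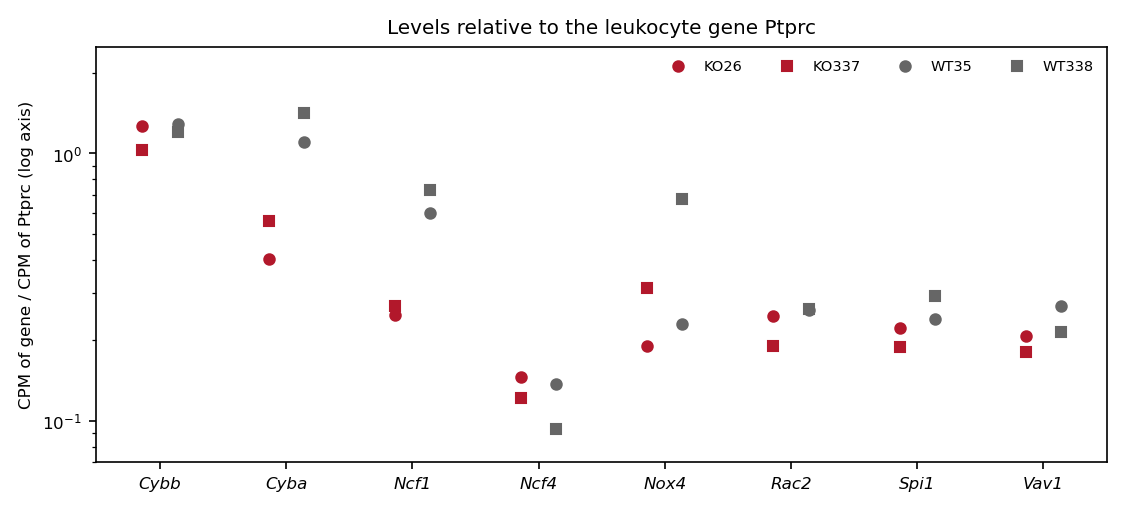
CPM of each gene divided by CPM of Ptprc in the same library (log axis), for KO26 and KO337 on the left and WT35 and WT338 on the right of each gene. Cybb stayed between 1.03 and 1.29, while Ncf1 and Cyba were lower in both libraries labelled KO. Rac1 is not drawn.

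Per kilobase of exon, the order of the members in WT was Rac1 at 53.3 ± 1.79, Cyba at 16.4 ± 2.7, Cybb at 2.92 ± 0.201, Ncf1 at 2.46 ± 0.308, Rac2 at 1.14 ± 0.0093, Ncf4 at 0.777 ± 0.218 and Nox4 at 0.725 ± 0.497 CPM per kilobase (mean ± SD, n = 2). The WT ranges of Ncf4 and Nox4 overlapped and all other neighbours were apart. In the libraries labelled KO the order of means was the same, at 56.5 ± 10.3 for Rac1, 41.9 ± 32.3 for Cyba, 16.1 ± 7.58 for Cybb, 6.08 ± 3.9 for Ncf1, 5.66 ± 2.48 for Rac2, 5.41 ± 2.65 for Ncf4 and 2.78 ± 2.38 CPM per kilobase for Nox4 (SD, n = 2). There only Cybb and Ncf1 were apart among neighbours. The place of Nox4 depends on the length used. With the longest transcript in place of all exons it was 1.57 CPM per kilobase in WT, above Rac2 at 1.17 and Ncf4 at 1.07. In CTL, Rac1 stood at 58.8 ± 0.939, Cyba at 22.7 ± 2.62, Cybb at 1.13 ± 0.383 and Nox4 at 0.172 ± 0.0404 CPM per kilobase (SD, n = 3), so Nox4 was the lowest member in each group with all exons as the length.

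Several further genes of the oxidase family were sparse. Nox3 had 0 counts in all libraries, Noxo1 at most 12, and Nox1, Noxa1, Duox1, Duoxa1 and Duoxa2 had at most 7 counts in any library, which at this depth does not show that they are absent. Cybc1, whose product helps NOX2 mature, stood at 15.5 and 24 CPM in KO26 and KO337, against 12 and 12.1 CPM in WT35 and WT338 (log2 fold change 0.71, adjusted p = 0.121). Poldip2, a partner that activates NOX4, had 83.4 and 59.8 CPM, against 108 and 101 CPM (log2 fold change -0.54, adjusted p = 0.102).

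Among 14 genes that load, hold or switch off Rac, 3 exchange factors were called higher and 0 genes lower by edgeR, and DESeq2 called 7. The median log2 fold change of the list was 0.64. Over all tested genes, edgeR called 2.21% (1.31% higher) and DESeq2 called 11.9%. Vav1, the exchange factor of blood cells, was 4.85-fold higher at 10.2 and 21.9 CPM in KO26 and KO337, against 3.71 and 2.89 CPM in WT35 and WT338 (adjusted p = 0.031). Dock2, which moves leukocytes through Rac, was 3.54-fold higher (adjusted p = 0.0483), and Prex1, switched on by phosphoinositides and G proteins, was 3.27-fold higher (adjusted p = 0.0455). The widely expressed Dock1, Tiam1 and Trio were not called, with Dock1 at a log2 fold change of 0.03 (SE 0.14). Of 10 kinases and lipid enzymes of assembly, 1 was called, the leukocyte phosphoinositide 3-kinase gene Pik3cd, at 4.02-fold (adjusted p = 0.0343). DESeq2 called 5 of the 10. Prkcb, a kinase that phosphorylates p47phox, and Pak1, a kinase activated by Rac, had log2 fold changes of 2.53 and 2.21 with adjusted p of 0.0534 and 0.053. The list median was 0.8. Of 7 tested transcription factors of phagocyte oxidase genes, Spi1 was called and 6 were not, with a list median of 0.35, and DESeq2 called 2. Irf8, a partner of PU.1, stood at 35.2 and 32.5 CPM in KO26 and KO337, against 21.4 and 22.8 CPM in WT35 and WT338 (adjusted p = 0.0607).

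Genes that remove oxidants varied in direction. Of 10 enzymes of superoxide and peroxide removal 0 were called by edgeR, 8 had negative differences, and the list median was -0.26. At an unadjusted p under 0.05 there were 3 of them, beside 3947 of all 15364 tested genes. DESeq2 called 2 of them, beside 11.9% of all tested genes. The 2 positive differences were those of the glutathione peroxidase gene Gpx1 and the extracellular superoxide dismutase gene Sod3, at 0.68 and 0.82 on the log2 scale. Sod2, the mitochondrial superoxide dismutase, stood at 292 and 148 CPM in KO26 and KO337, against 439 and 411 CPM in WT35 and WT338 (log2 fold change -0.95, adjusted p = 0.0872). Prdx3, a mitochondrial peroxiredoxin, stood at 160 and 96 CPM, against 248 and 226 CPM (log2 fold change -0.89, adjusted p = 0.0643). Both are rich in cardiac muscle, and the summed atrial muscle markers were lower in the same libraries. Their part was not tested. Of 8 tested further sources of reactive oxygen, 2 were called lower and 0 higher, beside 138 and 201 of all 15364 tested genes. DESeq2 called 2 of the 8. Maob, the mitochondrial monoamine oxidase B, fell 2.15-fold, to 99.4 and 70.9 CPM in KO26 and KO337, against 197 and 168 CPM in WT35 and WT338 (adjusted p = 0.0318). Nos1, the neuronal nitric oxide synthase, fell 4.12-fold, to 4.41 and 1.54 CPM, against 13.6 and 10.7 CPM (adjusted p = 0.0483). Vav1, Dock2, Prex1, Pik3cd, Spi1, Maob and Nos1 kept their call without KO26 and lost it without KO337, without WT35 and without WT338. Without KO337 their log2 fold changes were 1.6 for Vav1, 1.16 for Dock2, 1.0 for Prex1, 1.45 for Pik3cd, 1.57 for Spi1, -0.9 for Maob and -1.48 for Nos1. With upper quartile factors the adjusted p was 0.051 for Dock2 and 0.0559 for Nos1, and with size factors by relative log expression it was 0.0504 for Dock2.

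**Figure D4:**
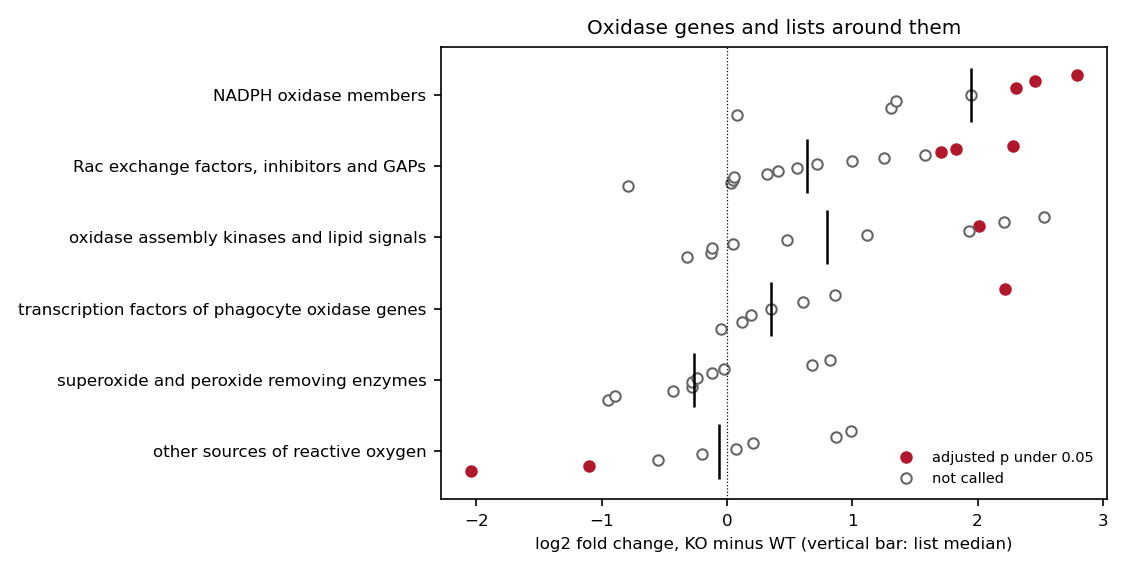
Log2 fold change of each tested gene (points) for KO minus WT on the x axis, by gene list, with filled points for an adjusted p under 0.05 and bars for list medians. Medians ran from 1.95 for the 7 members to -0.26 for the enzymes that remove superoxide and peroxide.

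The genes whose levels followed each member most closely over the 10 libraries differed between members. Closeness was the root mean square difference of log2 CPM after centring within each experiment, so that a small value means 2 near-identical profiles. It is not scaled by how much a gene varies, so steady genes lie close to each other and values of different members are not comparable. The centred values of Rac1 ran only from -0.15 to 0.22. For Cybb these were Myo1g, a myosin of blood cells (0.109), Lair1, an inhibitory leukocyte receptor (0.175) and Arhgap45 (0.189). Myo1g stood at 8.36 and 14.6 CPM in KO26 and KO337, against 2.03 and 1.63 CPM in WT35 and WT338 (6.24-fold higher). Each gene here was picked for its likeness to a member over these same libraries. Its difference between KO and WT therefore largely follows from that choice and is no separate result. For Rac2 they were the leukocyte surface genes Cd48 (0.199) and Selplg (0.212), followed by Ms4a6c (0.229). For Ncf4 they were Psd4 (0.351), Pak1 (0.361) and Otulinl (0.369). Cyba lay nearest to Ctsl, which encodes the lysosomal protease cathepsin L (0.12), the ferritin light chain gene Ftl1 (0.133) and Rilpl2 (0.144). Ncf1 lay nearest to Itih2 (0.152), Klhl29 (0.171) and Plxdc2 (0.202). Nox4 lay nearest to the Fc receptor gene Fcgr2b (0.223), the membrane metalloproteinase gene Mmp14 (0.259) and Dok1 (0.27). Mmp14 stood at 59.5 and 234 CPM in KO26 and KO337, against 34.9 and 51.8 CPM in WT35 and WT338. Rac1 lay nearest to Nucb1 (0.0486), Pak2, a widely expressed kinase activated by Rac (0.0487), and Ywhab (0.0499). Among the members, Cyba and Ncf1 were the closest pair (0.325), followed by Cybb and Rac2 (0.371), and Ncf4 and Rac1 were the farthest (0.95).

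Under ibrutinib no member was called. In edgeR's test 0 of 7 members and 0% of all tested genes had an adjusted p under 0.05, with 0 members and 848 genes (5.52%) at an unadjusted p under 0.05, and DESeq2 called 0 members and 2 genes (0.013%). All 7 members had positive differences, with a median of 0.42 on the log2 scale, against -0.03 over all tested genes. The IBR libraries lay above all CTL libraries for 3 members, Cyba, Nox4 and Rac1, which was so for 5.91% of all tested genes. Cybb stood at 11, 7.01 and 9.48 CPM in IBR1 to IBR3, against 5.35, 5.19 and 9.12 CPM in CTL1 to CTL3. CTL3 overlapped the IBR range (log2 fold change 0.48, SE 0.31, 95% interval -0.2 to 1.17, adjusted p = 0.824). Nox4 stood at 2.59, 2.07 and 2.26 CPM in IBR, against 1.54, 1.08 and 1.75 CPM in CTL. These are 36 to 42 counts in IBR against 15 to 29 counts in CTL, and the log2 fold change was 0.65 (SE 0.58, 95% interval -0.63 to 1.94, adjusted p = 0.854). The 8 fibroblast markers summed to 1490 to 2190 CPM in IBR, against 954 to 1430 CPM in CTL, with 8 of 8 positive differences, 3 at an unadjusted p under 0.05 and 0 called by edgeR or DESeq2, and their part in the Nox4 values was not tested.

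The other members varied within IBR and CTL as well. Cyba averaged 27.8 ± 2.19 CPM in IBR and 23.6 ± 2.72 CPM in CTL (SD, n = 3 each), a log2 fold change of 0.24 with a 95% interval of -0.54 to 1.02. Ncf1 averaged 5.27 ± 0.797 CPM in IBR and 3.94 ± 1.31 CPM in CTL (log2 fold change 0.42). Rac2 stood at 4.69, 1.49 and 3.12 CPM in IBR, against 2.67, 1.66 and 1.75 CPM in CTL, so that IBR2 was the lowest of all 6. Ncf4 ran from 0.428 to 1.67 CPM in IBR, against 0.74 to 1.51 CPM in CTL, on 7 to 27 counts a library, and its log2 fold change of 0.05 has a 95% interval of -1.08 to 1.18. Rac1 was the steadiest member, at 282 ± 6.82 CPM in IBR and 264 ± 4.22 CPM in CTL (log2 fold change 0.1, 95% interval -0.19 to 0.38). Ptprc stood at 6.72, 4.77 and 4.89 CPM in IBR, against 2.67, 5.69 and 3.56 CPM in CTL. The leukocyte and macrophage markers summed to 364 to 510 CPM in IBR, against a lowest value of 276 CPM in CTL with no overlap, with 12 of 12 positive differences, 4 at an unadjusted p under 0.05 and 0 called by edgeR or DESeq2, and their part in the members' values was not tested. No gene of the lists around the oxidase was called under ibrutinib by edgeR, where the smallest adjusted p in any of them was 0.823, and DESeq2 called 0 of them. At an unadjusted p under 0.05 there were 3 genes of the Rac list and 1 of the other oxidant sources.

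The difference between the genotype effect and the drug effect was tested in the same fit, and 0 of 7 members were called, beside 0.026% of all tested genes (4 genes). At an unadjusted p under 0.05 there were 3 members, Cybb, Ncf4 and Rac2, beside 9.79% of all tested genes. The difference of both log2 fold changes was 1.98 for Cybb (SE 0.47, adjusted p = 0.291), 2.74 for Ncf4 (SE 0.75, adjusted p = 0.343) and 1.71 for Rac2 (SE 0.63, adjusted p = 0.435). DESeq2 called 1 of them, Cybb, with an adjusted p of 0.017, beside 0.911% of all tested genes. Without KO26, edgeR called Cybb, Cyba and Ncf4 (adjusted p of 0.00496, 0.00216 and 0.0196), beside 9.67% of the genes tested in that fit. With all libraries, edgeR thus did not show that the genotype and drug effects on Cybb, Ncf4 and Rac2 differ. WT and CTL come from different experiments and were not compared.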

How the data were processed

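The deposited values were raw read counts per gene, 1 file per library. The submitters' processing notes name the tools STAR, HTSeq and edgeR and the genome build mm9. No source used here gives versions or the annotation. Per the labels' protocols the kit was directional, and per the deposited file names counting ignored strand. Each file had 37583 gene rows and 5 rows of unassigned reads, which stayed out of library sizes (reads in no feature 13.5% to 19.9%, ambiguous 3.14% to 3.99%, not unique 11.8% to 27.4% of counted records). Ensembl identifiers were matched to symbols for 32860 rows (87.4%).

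Counts were analysed here with edgeR 4.0.16 and DESeq2 1.42.0 under R 4.3.3. The filter was filterByExpr (minimum count 10, minimum total 15), scaling was by TMM, and genes were fitted by robust quasi-likelihood with 1 mean per group over all 10 libraries (6 residual degrees of freedom). P-values were adjusted by Benjamini-Hochberg over 15364 genes. The SE is the log2 fold change over the root of F. The common biological coefficient of variation was 0.221 over all libraries and 0.291 over WT and KO, so the pooled spread used for KO against WT is smaller than that of those libraries. Alike profiles used log2 CPM with a prior count of 2 and genes whose average log2 CPM was at least 1. Ratios to Ptprc had a pseudocount of 0.5 on the log2 scale. Lengths, overlaps and gene types came from GENCODE M21, of another build than mm9, so coordinates are printed for RefSeq promoters alone. A floor of 3 counts corresponds to 0.136 to 0.216 CPM in these libraries.

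The members and lists were chosen with earlier results of these data known. Named were the members, Csk, Ptprc, called genes of each pathway list or else its 2 smallest p-values, and 3 alike profiles per member. Others named were chosen after their values were seen. Alternatives were other scalings, no filter, DESeq2, fits within an experiment, a replicate block and leaving out each library. Ratios to Ptprc for pathway genes other than the members were added after the data were seen. The result of 1 further pathway gene, and the counts of its list, are not reported here.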

Additional observations from a re-analysis of the deposited data

How the results depend on the processing

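Counts of calls depended on the tool and the libraries. For KO against WT, 339 genes and 3 members were called by edgeR over all libraries. Without a filter on low counts 1146 genes were called, by DESeq2 1830 genes and 6 members, and in a fit of the WT and KO libraries alone 0 genes and 0 members, where the adjusted p of Cybb, Ncf4 and Rac2 was 0.297. Leaving out 1 library gave 14 to 3933 genes and 0 to 6 members. Of the 339 genes 38 were among the 55 called without KO337, 9 among the 14 called without WT35, 16 among the 21 called without WT338 and all 339 among the 3933 called without KO26. For IBR against CTL, 0 genes were called, against 2 without a filter and 2 by DESeq2, and 0 in every fit that left out 1 library. For the difference of both effects, 4 genes were called, against 0 with upper quartile factors, 84 without a filter, 140 by DESeq2 (1 of them a member) and 0 with the replicate block, and leaving out 1 library gave 0 to 1564 genes and 0 to 3 members. The replicate block called 0 genes for IBR against CTL as well, with 848 genes at an unadjusted p under 0.05 without the block. The labels do not say whether the title numbers that CTL and IBR share pair the libraries. Deviations from the group means correlated at 0.0159, 0.162 and 0.0321 between same-numbered libraries, and CTL3 correlated best with IBR1 (0.182). With 3 libraries in each group, these correlations cannot decide whether the numbers pair them.

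Signs turned for values that were not called, and the cause was not tested. The difference of effects for Rac1 was 0.00659 with upper quartile factors, and Ncf4 under ibrutinib was -6.72e-05 with the replicate block. Leaving out 1 library, Ncf4 under ibrutinib ran from -0.37 to 0.43 on the log2 scale. In the difference of effects Rac1 ran from -0.25 to 0.15, Cyba from -0.067 to 1.72, Ncf1 from -0.025 to 1.41 and Nox4 from -0.075 to 2.23. In KO against WT, Rac1 ran from -0.14 to 0.24, Nucb1 from -0.13 to 0.27, Pak2 from -0.042 to 0.25 and Ywhab from -0.197 to 0.27. With 7 to 38 counts in each library outside KO, Ncf4 has the least depth of the members.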

Other observations

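Ncf4 and Rac2, both called higher in the libraries labelled KO, lie near each other on chromosome 15. In RefSeq's order for GRCm38.p6, 10 protein-coding genes stand between them, of which 9 were tested and 0 were called in KO against WT by edgeR. The interval was looked at after the values of Ncf4 and Rac2 were seen. Of the 9 genes, 6 had positive differences. Il2rb, a receptor chain of T and NK cells, stood at 4.35 and 2.44 CPM in KO26 and KO337, against 0.445 and 0.88 CPM in WT35 and WT338 (log2 fold change 2.36, adjusted p = 0.074). Csf2rb, the shared receptor chain for the cytokines GM-CSF, IL-3 and IL-5, stood at 8.59 and 58.1 CPM in KO26 and KO337, against 4.7 and 10.8 CPM in WT35 and WT338, so KO26 lay within the WT range (log2 fold change 2.11, adjusted p = 0.125). Sstr3, a somatostatin receptor, stood at 1.39 and 1.04 CPM, against 4.16 and 3.84 CPM (log2 fold change -1.72, adjusted p = 0.0646). Mpst and Tst, a pair of sulfurtransferase genes in the same interval, had log2 fold changes of -0.26 and 0.04.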
